A study of Mus musculus with 16 samples.

Results

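The lineage-defining transcription factor genes of helper and regulatory T cells followed here were Foxp3, Tbx21, Gata3, Rora, Bcl6, Eomes, Ahr, Maf and Batf. They were taken by gene symbol from tables that list 53090 genes, so the set holds 9 of 53090 genes, and each symbol matched 1 row. The study sequenced mRNA from splenic CD4+ T cells of C57BL/6 wild-type (WT) mice and of mice deficient in AIM2, a cytosolic sensor of double-stranded DNA (Aim2-/-), in 4 groups of 4 libraries. In the WT Tn and Aim2-/- Tn groups the naive cells were freshly isolated and not cultured. In the WT Treg and Aim2-/- Treg groups the CD4+ T cells had been kept for 48 h with anti-CD3/CD28 antibodies, recombinant human TGF-beta and recombinant mouse IL-2. The Aim2-/- mice were on the C57BL/6 background, and the ages of the mice are not given in the sources used here. The groups called Treg are cells under regulatory T cell-inducing conditions, not sorted Foxp3+ cells, and they differ from Tn both in T cell receptor stimulation and in cytokines, which cannot be told apart.

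A naive CD4+ T cell that meets antigen takes on a fate that depends on the cytokines around it, and each fate is held by a small set of DNA-binding proteins. Foxp3 is the forkhead factor of regulatory T cells, and TGF-beta with IL-2 induces it in naive cells. Tbx21 encodes T-bet, the T-box factor of Th1 cells, and Eomes is its close relative in cytotoxic and memory cells. Gata3 is the zinc-finger factor of Th2 cells and is also needed for the making of CD4+ T cells in the thymus. Rora encodes a retinoid-related orphan receptor that acts in Th17 cells. Bcl6 is the repressor that marks follicular helper cells. Ahr is a ligand-activated receptor for environmental and tryptophan-derived compounds, Maf encodes the bZIP factor c-MAF, which drives IL-10 and IL-21, and Batf is an AP-1 family protein that works with IRF4 and IRF8.

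The libraries held 22516424 to 34533316 expected counts. Aim2 itself was at 32.0 to 43.7 CPM (counts scaled to a common library size) in the 8 WT libraries and at 6.44 to 10.95 CPM in the 8 Aim2-/- libraries, so no library went against its genotype label. The 7 CD4+ T cell markers (Cd3e, Cd3d, Cd3g, Trac, Cd4, Cd5 and Thy1) summed to 3530 to 4590 CPM in Tn. Their sums were lower in Treg, at 1740 to 2210 CPM. Summed markers of other cells were low, and lower in Treg than in Tn apart from an overlap for B cell genes: B cell genes at 1.06 to 2.29 CPM in Tn and 0.377 to 1.18 in Treg, myeloid genes at 12.3 to 19.7 and 1.85 to 3.97, erythroid genes at 1.22 to 7.78 and 0.0342 to 0.188, CD8 genes at 8.91 to 12.1 and 2.29 to 4.08, and NK and innate lymphoid genes at 2.33 to 9.96 and 0.0 to 0.205. The B cell marker Ms4a1 did not exceed 3 counts in any library. The 4 memory-cell markers (Cd44, S100a4, Ly6c2 and Itgb1) summed to 87.9 to 130 CPM in Tn and 344 to 412 CPM in Treg. They did not move as a set. In the fits of Treg against Tn described below, 2 of the 4 were called higher and 2 lower in each genotype. Their median log2 fold change was -0.15 in WT and -0.59 in Aim2-/-. In such bulk samples fewer cells of a type and less RNA per cell cannot be told apart.

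RefSeq promoter windows of GRCm38.p6 were available for 7 of the 9 genes, as 9 windows, and Ahr and Maf had no entry. The 250 bases before a start site are shown for the factors with the largest changes in culture in each direction, Foxp3 and Tbx21 (higher in Treg) and Eomes and Gata3 (lower in Treg), and for Bcl6, whose window held 3 matches to 1 motif. They are written 5′ to 3′ on the gene's own strand, with matches to 8 short motifs in capitals.
Foxp3, downstream of its 2 starts, chrX:7580233-7580482, plus strand: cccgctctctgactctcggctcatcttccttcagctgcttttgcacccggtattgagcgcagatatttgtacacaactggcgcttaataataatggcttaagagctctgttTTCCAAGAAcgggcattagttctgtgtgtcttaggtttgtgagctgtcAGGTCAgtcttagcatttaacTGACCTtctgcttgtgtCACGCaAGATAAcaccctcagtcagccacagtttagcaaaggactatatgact
Tbx21, chr11:97115332-97115581, minus strand: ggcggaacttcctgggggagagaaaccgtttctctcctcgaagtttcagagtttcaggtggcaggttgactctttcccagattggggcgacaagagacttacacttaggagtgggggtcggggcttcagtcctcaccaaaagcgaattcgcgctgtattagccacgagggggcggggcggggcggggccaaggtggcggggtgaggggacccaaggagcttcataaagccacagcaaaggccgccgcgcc
Gata3, chr2:9878601-9878850, minus strand: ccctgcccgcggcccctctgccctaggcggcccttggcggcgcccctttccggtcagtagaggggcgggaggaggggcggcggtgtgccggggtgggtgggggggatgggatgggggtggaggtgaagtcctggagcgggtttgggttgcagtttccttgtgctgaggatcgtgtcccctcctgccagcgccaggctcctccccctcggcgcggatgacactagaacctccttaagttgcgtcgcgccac
Eomes, chr9:118477939-118478188, plus strand: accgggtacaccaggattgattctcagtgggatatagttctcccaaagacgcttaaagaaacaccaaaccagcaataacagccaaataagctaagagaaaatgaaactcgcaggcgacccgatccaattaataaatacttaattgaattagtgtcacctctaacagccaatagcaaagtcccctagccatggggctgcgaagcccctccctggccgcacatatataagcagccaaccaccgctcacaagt
Bcl6, chr16:23981284-23981533, minus strand: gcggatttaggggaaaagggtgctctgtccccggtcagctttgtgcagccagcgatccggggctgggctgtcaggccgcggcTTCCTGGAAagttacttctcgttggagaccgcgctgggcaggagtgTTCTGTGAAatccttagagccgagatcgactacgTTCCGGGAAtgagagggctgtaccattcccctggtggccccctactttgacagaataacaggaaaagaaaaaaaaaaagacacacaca
The Foxp3 window shown lies in an exon of the noncoding gene Flicr and the Gata3 window in an exon of the antisense gene Gm13256, while the Tbx21, Eomes and Bcl6 windows lie in no annotated exon. For the Bcl6 and Eomes windows shown, 0 GENCODE transcripts of the gene start with the bases that follow, and 0 contain them. The other Bcl6 window, which is not shown, lies before the start of 1 transcript. The other Foxp3 window, 250 bases inside annotated exons, is not shown, and it held TATAAA 32 to 27 bases before the start and GCGTG on the opposite strand.

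The motifs, searched on both strands, were the AP-1 site TGANTCA (present in 6.75% of all 32851 windows of this length), the GATA site AGATAA (9.99%), the forkhead site GTAAACA (3.17%), the T-box site GGTGTGA (3.33%), the ROR site AGGTCA (14%), the xenobiotic response core GCGTG (28.2%), the STAT site TTCNNNGAA (7.02%) and the TATA box TATAAA (12.4%). None of these motifs contains another. The Bcl6 window above held 3 STAT-type matches, and the other Bcl6 window held 1. The Foxp3 window above held a STAT-type match, a GATA match, a GCGTG core on the opposite strand and 2 ROR sites, one on each strand. No motif was matched in the windows of Tbx21, Gata3 and Eomes, which says only that these letters are not in those 250 bases. The AP-1, forkhead and T-box letters were in none of the 9 windows. GC content was 60.8% upstream of Tbx21 and 70.0% upstream of Gata3, and 46.0% in the Foxp3 window and 46.4% in the Eomes window, with a median of 52.4% over all windows.

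The comparison of Treg with Tn asked how the factors differ between naive cells and cells under Treg-inducing conditions. In WT cells 8 of the 9 factors passed the test (edgeR's quasi-likelihood test, Benjamini-Hochberg adjusted over all 13675 genes tested, threshold 0.05), 4 higher and 4 lower, against 76.9% of all genes called (37.7% higher and 39.2% lower). In Aim2-/- cells all 9 passed, 5 higher and 4 lower, against a background of 79.3% of 13713 genes (39.1% higher and 40.2% lower). Shares this close to the background say little about the factors as a set. The sizes differed more, with a median absolute log2 fold change of 2.41 over the factors in WT and 2.51 in Aim2-/-, beside 0.94 and 0.97 over all genes tested. The Tn and Treg libraries did not overlap for 8 of the 9 factors in WT (72.9% of all genes) and for 8 of 9 in Aim2-/- (74.7% of all genes). Foxp3, Tbx21, Ahr and Maf rose in both genotypes, Eomes, Gata3, Batf and Bcl6 fell in both, and Rora passed the test in Aim2-/- cells.

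**Figure D1:**
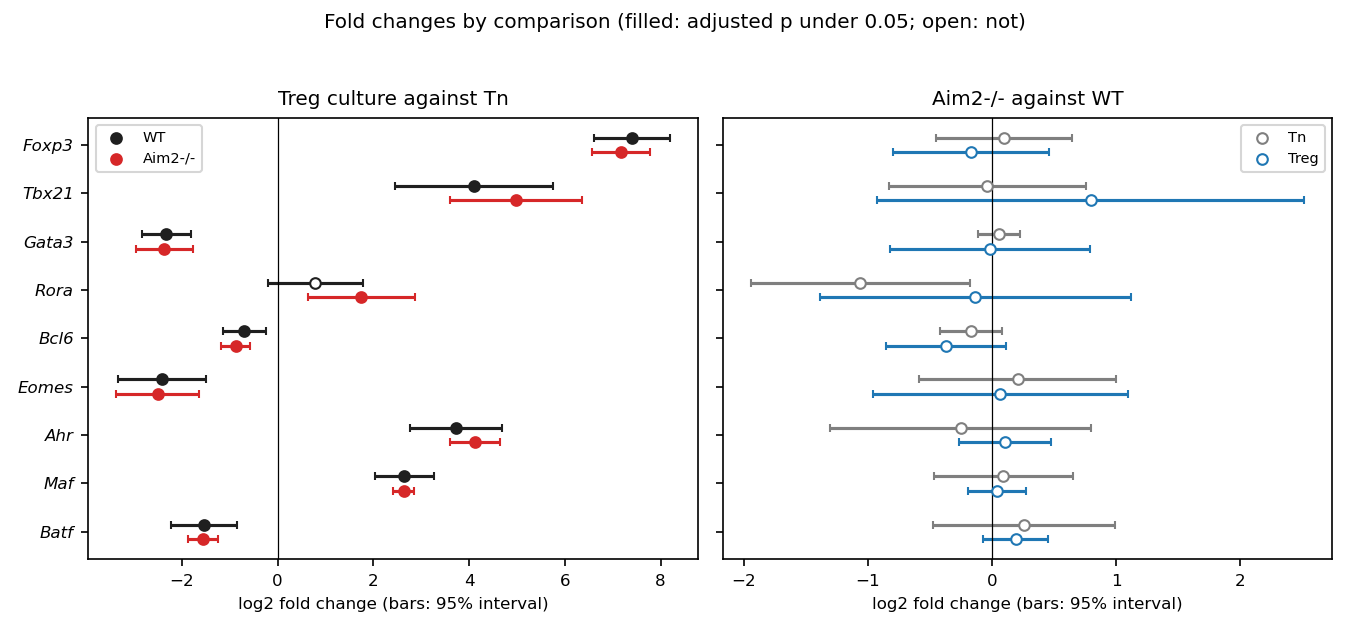
Log2 fold change (horizontal axis) of each of the 9 factors for Treg against Tn within each genotype (left) and for Aim2-/- against WT within each state (right), with 95% intervals from the fit of 8 libraries; filled points passed the adjusted threshold and open points did not. In the left panel 17 of the 18 points are filled and Foxp3 lies farthest to the right at 7.41 and 7.18, while every point in the right panel is open.

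Foxp3 (ENSMUSG00000039521, chrX:7573644-7595245, plus strand) showed the largest change. It was at 2.00, 1.97, 2.93 and 3.98 CPM in WT Tn replicates 1 to 4 and at 2.84, 2.51, 3.26 and 2.86 CPM in Aim2-/- Tn. It stood at 568, 574, 500 and 283 CPM in WT Treg and at 567, 530, 334 and 293 CPM in Aim2-/- Treg. Every Treg library was far above every Tn library, and within Treg the libraries WT 4 and Aim2-/- 3 and 4 were the 3 lowest. The log2 fold change was 7.41 ± 0.35 (SE, adjusted p = 8.69e-08, edgeR) in WT, which is 170-fold, and 7.18 ± 0.27 (adjusted p = 3.17e-09) in Aim2-/-. Foxp3 shares ground with the genes Ccdc22, Ppp1r3f, Gm36995 and Flicr, and its counts were not whole numbers in any of the 16 libraries, so some reads had been divided among features by the authors' quantification. Counts were also not whole numbers in 14 libraries for Maf and in 12 libraries for Eomes. Ccdc22 was at 45.6 CPM on average in WT Tn and 31.4 CPM in WT Treg, above Foxp3 in Tn and below it in Treg, and it lies on the opposite strand.

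The T-box factors moved in opposite directions. Tbx21 (ENSMUSG00000001444, chr11:97098071-97115331, minus strand) was at 2.93, 1.89, 3.90 and 3.13 CPM in WT Tn and at 2.24, 2.32, 5.198 and 1.64 CPM in Aim2-/- Tn. In WT Treg it was at 14.9, 49.8, 18.9 and 129 CPM, and in Aim2-/- Treg at 19.5, 76.3, 136 and 140 CPM. All 8 Treg libraries were above all Tn libraries, yet they differed among themselves by up to 8.64-fold within WT and 7.15-fold within Aim2-/-. Tbx21 rose by 4.10 ± 0.72 on the log2 scale in WT (adjusted p = 0.00065) and by 4.98 ± 0.62 in Aim2-/- (adjusted p = 2.76e-05). With only WT replicates 3 and 4 the value was 4.32, adjusted p = 0.0741, and the call was lost.

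Eomes (ENSMUSG00000032446, chr9:118478212-118486132, plus strand) was at 14.9, 20.7, 17.3 and 12.03 CPM in WT Tn and at 31.7, 9.90, 19.5 and 12.7 CPM in Aim2-/- Tn. It was at 2.43, 2.87, 1.31 and 6.17 CPM in WT Treg and at 2.52, 2.80, 5.47 and 2.57 CPM in Aim2-/- Treg. The Tn and Treg ranges were apart in both genotypes. Eomes fell by 2.41 ± 0.41 on the log2 scale in WT (adjusted p = 0.000423) and by 2.51 ± 0.39 in Aim2-/- (adjusted p = 0.000144). Only replicates 3 and 4 of WT gave a change of -2.07 with an adjusted p of 0.0898. NK and innate lymphoid markers, which include other cells that use Eomes, were at 2.33 to 9.96 summed CPM in Tn and at most 0.205 CPM in Treg, and their part in the Eomes level was not tested.

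Gata3 (ENSMUSG00000015619, chr2:9857078-9890034, minus strand) had the tightest levels of the set in Tn, at 55.8, 54.1, 53.1 and 56.6 CPM in WT and at 53.5, 60.1, 54.1 and 57.0 CPM in Aim2-/-. In Treg it was at 17.0, 11.5, 7.12 and 9.81 CPM in WT and at 17.9, 12.6, 8.38 and 6.38 CPM in Aim2-/-. The highest Treg library, at 17.9 CPM, was far below the lowest Tn library, at 53.1 CPM. The log2 fold change was -2.32 ± 0.23 in WT (adjusted p = 8.82e-06) and -2.37 ± 0.27 in Aim2-/- (adjusted p = 1.25e-05), or 5.01-fold and 5.16-fold lower.

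Rora (ENSMUSG00000032238, chr9:68653786-69388246, plus strand) was the factor whose groups were least separate. It was at 13.2, 20.1, 6.16 and 6.07 CPM in WT Tn and at 7.01, 5.44, 4.98 and 4.05 CPM in Aim2-/- Tn. In Treg it was at 26.5, 24.5, 21.0 and 9.55 CPM in WT and at 34.8, 25.7, 8.07 and 6.19 CPM in Aim2-/-. WT Tn replicates 1 and 2 reached into the WT Treg range, and Aim2-/- Treg replicate 4 reached into the Aim2-/- Tn range. Rora rose by 1.75 ± 0.50 in Aim2-/- (adjusted p = 0.00833), and in WT the log2 fold change of 0.79 ± 0.44 did not pass the test (adjusted p = 0.127). In WT the call was made without WT Tn replicate 2 (1.18, adjusted p = 0.0273), without WT Treg replicate 4 (1.07, adjusted p = 0.043), and with only replicates 1 and 2 (0.61, adjusted p = 0.0183) or 3 and 4 (1.26, adjusted p = 0.0497). It was also made with a term for replicates 1 and 2 against 3 and 4 (0.90, adjusted p = 0.0139) and with the replicate number as a block (0.86, adjusted p = 0.0153). In Aim2-/- the value was 2.22 with only replicates 1 and 2 and 0.58 with only replicates 3 and 4, both past the threshold.

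Maf (ENSMUSG00000055435, chr8:115682942-115707794, minus strand) was at 11.5, 11.7, 5.99 and 5.36 CPM in WT Tn and at 9.92, 7.79, 9.63 and 8.88 CPM in Aim2-/- Tn. It was at 47.6, 51.1, 66.9 and 59.8 CPM in WT Treg and at 55.1, 56.5, 62.7 and 59.2 CPM in Aim2-/- Treg. The Treg values were close together and well above Tn, where WT replicates 3 and 4 were low. Maf rose by 2.65 ± 0.27 in WT (adjusted p = 1.29e-05) and by 2.63 ± 0.10 in Aim2-/- (adjusted p = 9.73e-10) on the log2 scale, and its antisense neighbor Gm15655 was at 0.186 CPM in WT Tn and 1.37 CPM in WT Treg.

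Batf (ENSMUSG00000034266, chr12:85686669-85709087, plus strand) was lower in Treg. It was at 53.9, 72.5, 28.7 and 26.4 CPM in WT Tn and at 63.3, 41.4, 52.8 and 55.9 CPM in Aim2-/- Tn. In WT Treg it was at 15.3, 16.3, 15.7 and 17.8 CPM and in Aim2-/- Treg at 15.8, 16.4, 21.3 and 21.4 CPM. Even the low WT Tn replicates 3 and 4 stayed above all Treg libraries. Batf fell by 1.53 ± 0.30 in WT (adjusted p = 0.00127) and by 1.56 ± 0.15 in Aim2-/- (adjusted p = 1.39e-06) on the log2 scale.

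Bcl6 (ENSMUSG00000022508, chr16:23965052-23988852, minus strand) changed least among the factors called in both genotypes. Tn libraries were at 20.6, 23.1, 18.6 and 17.3 CPM in WT and at 17.8, 15.9, 17.5 and 18.8 CPM in Aim2-/-. Treg libraries were at 13.3, 13.6, 16.04 and 7.86 CPM in WT and at 12.3, 9.90, 8.93 and 8.38 CPM in Aim2-/-. Within each genotype the ranges did not overlap, though WT Treg replicate 3 came near WT Tn replicate 4 and lay above Aim2-/- Tn replicate 2. Bcl6 fell by 0.70 ± 0.20 in WT (adjusted p = 0.00938) and by 0.88 ± 0.14 in Aim2-/- (adjusted p = 9.94e-05), and with only replicates 3 and 4 of WT the value of -0.65 did not pass (adjusted p = 0.174).

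Ahr (ENSMUSG00000019256, chr12:35497974-35535038, minus strand) was at 3.93, 4.77, 1.26 and 1.31 CPM in WT Tn and at 3.88, 1.83, 1.79 and 1.83 CPM in Aim2-/- Tn. It was at 34.3, 37.3, 31.0 and 53.2 CPM in WT Treg and at 34.7, 43.9, 45.9 and 44.2 CPM in Aim2-/- Treg. Each Treg library exceeded each Tn library several times over. Ahr rose by 3.73 ± 0.43 in WT (adjusted p = 3.21e-05), or 13.3-fold, and by 4.13 ± 0.24 in Aim2-/- (adjusted p = 4.35e-08), or 17.5-fold.

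**Figure D2:**
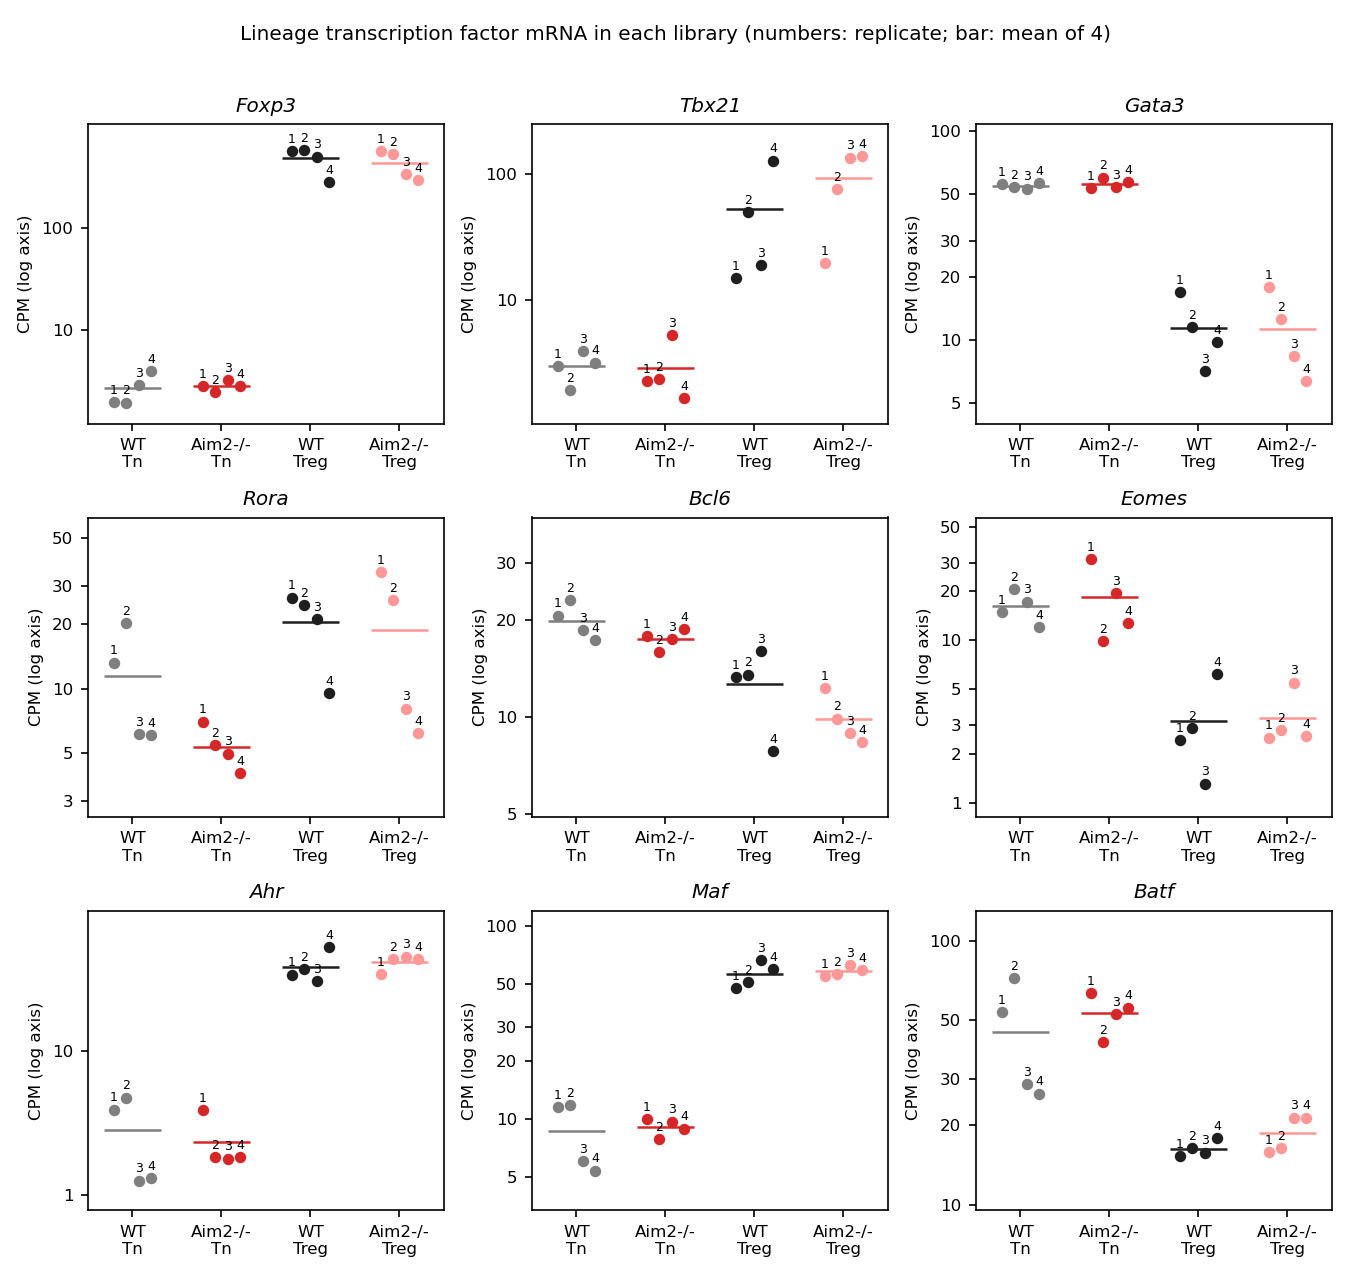
Level of each factor in every library, in CPM on a log axis that differs between panels, by group (horizontal axis); points carry the replicate number and bars are means of 4 libraries. Foxp3, Tbx21, Ahr and Maf are higher in all Treg than in all Tn libraries, Gata3, Eomes and Batf are lower in all, Bcl6 is lower within each genotype, Rora overlaps, and WT and Aim2-/- points of the same state overlap in every panel.

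Levels of different genes were compared per kilobase of annotated exon. In WT Tn the order ran from Batf at 32.3 ± 15.6 CPM per kb (SD, n = 4) through Gata3 at 13.8 ± 0.40, Eomes at 3.91 ± 0.89, Bcl6 at 2.97 ± 0.38, Tbx21 at 1.19 ± 0.33, Maf at 1.05 ± 0.42, Rora at 0.87 ± 0.51 and Foxp3 at 0.59 ± 0.21 to Ahr at 0.46 ± 0.29 CPM per kb. Of these neighbors Eomes and Bcl6 overlapped in their libraries, as did each neighboring pair from Tbx21 down to Ahr. In Aim2-/- Tn Batf (37.9 ± 6.49 CPM per kb) and Gata3 (14.1 ± 0.76) again led. Foxp3 moved from near the bottom in Tn to the top in Treg, at 105 ± 29.8 CPM per kb in WT Treg and 94.1 ± 30.03 in Aim2-/- Treg. Tbx21 came next with 21.4 ± 21.2 and 37.3 ± 22.8 CPM per kb and overlapped with Batf at 11.6 ± 0.79 and 13.3 ± 2.16. Maf (6.84 ± 1.05 and 7.08 ± 0.41) and Ahr (6.32 ± 1.596 and 6.84 ± 0.82) overlapped each other and stood above Gata3 (2.86 ± 1.05 and 2.84 ± 1.28). Gata3, Bcl6, Rora and Eomes formed the lower end in Treg with each neighboring pair overlapping, and Eomes was lowest at 0.77 ± 0.50 and 0.80 ± 0.34 CPM per kb. With the longest transcript as the length the 9 positions in WT Treg stayed as given, while in WT Tn Bcl6 passed Eomes and Maf passed Tbx21.

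The comparison of genotypes asked whether the factors differ when AIM2 is missing. None of the 9 factors passed the test in Tn (edgeR, 0.231% of 13441 genes called, 0.134% higher and 0.0967% lower) or in Treg (edgeR, 0.219% of 13221 genes called, 0.129% higher and 0.0908% lower), and DESeq2 and limma-voom also called 0 in each state. With so small a background a count of 0 among 9 genes is near what any 9 genes give. At an unadjusted p under 0.05 (edgeR) there was 1 factor in Tn, beside 1389 of all 13441 genes. In Treg there were 0 factors, beside 305 of all 13221 genes. These counts too are near what any 9 genes give. WT and Aim2-/- libraries overlapped for all 9 factors in both states (6.84% of all genes did not overlap in Tn and 2.33% in Treg).

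Summed erythroid markers moved with genotype in Tn, at 1.22 to 3.96 CPM in WT and 5.11 to 7.78 CPM in Aim2-/-, and their part in the values below was not tested. The 1 factor in Tn was Rora, at 11.4 ± 6.72 CPM (SD, n = 4) in WT and 5.37 ± 1.24 in Aim2-/-, a log2 fold change of -1.06 (95% interval -1.95 to -0.18) with an adjusted p of 0.427 in the edgeR fit. WT Tn replicates 1 and 2 lay above all Aim2-/- libraries, and WT replicates 3 and 4 lay inside the Aim2-/- range. Restricted to replicates 1 and 2 the value was -1.40 (adjusted p = 0.081), and restricted to replicates 3 and 4 it was -0.43 (adjusted p = 0.233). Batf in Tn was at 45.4 ± 21.96 CPM in WT and 53.3 ± 9.12 in Aim2-/- (0.26, interval -0.48 to 0.99). Its direction turned between replicates, with -0.25 in replicates 1 and 2 (adjusted p = 0.606) and 0.99 in replicates 3 and 4 (adjusted p = 0.00204), the latter called. Foxp3 in Tn differed by 0.09 (interval -0.45 to 0.64), and Gata3, the most tightly measured, by 0.06 (interval -0.11 to 0.22).

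In Treg, Foxp3 was at 481 ± 137 CPM (SD, n = 4) in WT and 431 ± 137 in Aim2-/-, a log2 fold change of -0.17 with a 95% interval from -0.80 to 0.46 and an adjusted p of 0.999 (edgeR). Tbx21 had the widest interval, at 53.1 ± 52.9 CPM in WT and 92.8 ± 56.8 in Aim2-/- (0.79, interval -0.93 to 2.52). Leaving out 1 library moved the Tbx21 value between 0.48 and 1.71, the highest without WT Treg replicate 4, and no setting called it. The narrowest intervals belonged to Maf (0.04, -0.19 to 0.27), Batf (0.19, -0.07 to 0.45) and Ahr (0.10, -0.27 to 0.48). Bcl6 was 0.37 lower on the log2 scale in Aim2-/- without passing (interval -0.86 to 0.11), and Rora, Gata3 and Eomes had values of -0.14, -0.02 and 0.06. The Rora value was 0.24 with only replicates 1 and 2 and -1.11 with only replicates 3 and 4, neither past the threshold. A missed threshold does not show that the genotypes were alike.

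Whether culture changed a factor by a different amount in the 2 genotypes was tested with an interaction term over all 16 libraries. It passed for 0 of the 9 factors (edgeR, 0.0205% of 14669 genes, which is 3 genes), and also with DESeq2 and limma-voom. At an unadjusted p under 0.05 (edgeR) there were 0 factors as well, beside 512 of all 14669 genes. The largest estimates were for Rora, 0.94 ± 0.75 (SE, adjusted p = 1.0), and Tbx21, 0.85 ± 1.02 (adjusted p = 1.0). The direction for Rora turned between replicates, with 1.65 in replicates 1 and 2 and -0.68 in replicates 3 and 4, and leaving out 1 library moved Tbx21 between 0.55 and 1.79, the highest without WT Treg replicate 4. The passing of Rora in Aim2-/- cells but not in WT cells is therefore no shown difference between genotypes.

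Replicates 1 and 2 were set against 3 and 4 in both states, a split that no label names as a batch. The split was chosen because earlier results of these same data had shown it. The p-values below therefore describe the split and are no independent test of it. It was not complete in Treg. On the first principal component given below, WT Treg replicate 3 (0.16) lay with replicates 1 and 2 (0.41 and 0.23), away from replicate 4 (-0.38). In Tn 6.98% of all genes passed a test of replicates 3 and 4 against 1 and 2 with genotype in the model, and in Treg 22.6% did. Among the factors, Ahr (-1.18 ± 0.29, SE, adjusted p = 0.0407) and Rora (-0.97 ± 0.22, adjusted p = 0.0373) passed in Tn, both lower in replicates 3 and 4. In Treg, Foxp3 (-0.69 ± 0.18, adjusted p = 0.036), Gata3 (-0.91 ± 0.19, adjusted p = 0.0133) and Rora (-1.39 ± 0.38, adjusted p = 0.0469) were lower in replicates 3 and 4, and Maf (0.23 ± 0.07, adjusted p = 0.0321) was higher. Tbx21 had an estimate of 1.34 ± 0.77 in Treg and did not pass (adjusted p = 0.261). The values within replicates 1 and 2 and within 3 and 4 are given above wherever a call changed.

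The factors differed in how far replicates spread. The SD of log2 CPM within groups was 0.06 for Gata3 in Tn, a spread smaller than that of all but 1.8% of genes tested, and 0.15 for Bcl6, beside a median of 0.21 over genes. Ahr (0.79, 95.9th percentile), Rora (0.64) and Tbx21 (0.58) spread widely in Tn. In Treg the median over genes was 0.17, and Tbx21 at 1.37 (99.3rd percentile), Rora at 0.98 (98.0th) and Eomes at 0.73 (95.5th) were among the most variable genes, while Maf (0.17) and Batf (0.18) were near the median. Gata3 went from 0.06 in Tn to 0.59 in Treg.

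In WT Tn the 4 factors Ahr, Rora, Maf and Batf were all low in replicates 3 and 4 and high in 1 and 2, as the values above show. Some genes of the lists described below were likewise lower in replicates 3 and 4 than in 1 and 2. Fosl2 was at 518, 732, 20.6 and 43.1 CPM in WT Tn replicates 1 to 4, Irf4 at 48.7, 72.3, 12.7 and 18.4 CPM, Nfil3 at 49.9, 63.2, 6.53 and 12.3 CPM and Ctla4 at 79.4, 79.7, 12.7 and 17.4 CPM. In the same replicates Tiparp was at 93.1, 95.5, 26.7 and 30.3 CPM and Il4ra at 1260, 1430, 418 and 419 CPM. Fos, with its highest WT Tn level of 480 CPM in replicate 4, and Junb (2190, 2820, 2080 and 2560 CPM) did not show that split. These genes were singled out after their values were seen.

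**Figure D3:**
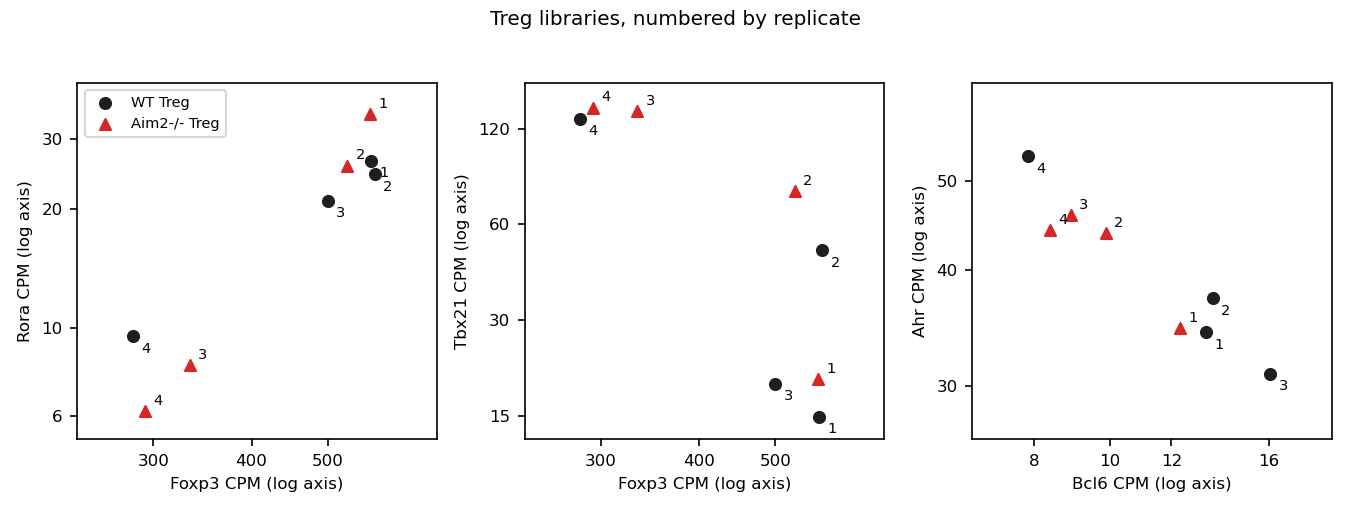
Levels of 3 pairs of factors in the 8 Treg libraries (CPM, log axes), with WT as circles, Aim2-/- as triangles and the replicate number beside each point. WT replicate 4 and Aim2-/- replicates 3 and 4 share low Foxp3, low Rora and high Tbx21, and Bcl6 and Ahr run in opposite directions.

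Over the 8 Treg libraries the factors varied together. The libraries WT 4, Aim2-/- 3 and Aim2-/- 4 were the 3 lowest for Foxp3 (283 to 334 CPM) and Rora (6.19 to 9.55 CPM) and the 3 highest for Tbx21 (129 to 140 CPM), Ahr (44.2 to 53.2 CPM) and Batf (17.8 to 21.4 CPM). For Bcl6 the same libraries were the lowest 3, at 7.86 to 8.93 CPM. Libraries of both genotypes took part, so the order did not follow genotype. The order did not follow the replicate number fully either, since WT replicate 3 had 500 CPM of Foxp3 and 18.9 CPM of Tbx21. The libraries share depth, normalization and the split of replicates, so the correlations below are descriptions over 8 points and carry no p.

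Pearson's r of log2 CPM was 0.96 for Foxp3 with Rora and 0.84 for Foxp3 with Bcl6, and it was -0.81 for Foxp3 with Tbx21, -0.84 with Batf and -0.78 with Ahr. Tbx21 went with Ahr (0.92), Batf (0.84) and Eomes (0.71) and against Bcl6 (-0.89) and Rora (-0.82). The strongest negative pair was Bcl6 with Ahr at -0.95, followed by Rora with Batf at -0.92. Spearman's rho was 0.76 for Foxp3 with Rora, -0.69 for Foxp3 with Tbx21 and 1.00 for Tbx21 with Batf. Gata3 followed Rora (0.77) and ran against Maf (-0.77), and had an r of -0.0003 with Eomes. Of the 36 pairs, 18 had an absolute r of at least 0.7, of which 8 were positive and 10 negative.

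Such values are common in these libraries, because 41.4% of the 13221 genes tested had an absolute r of at least 0.7 with Foxp3 and 31.7% had one with Tbx21. The first principal component of the libraries over all genes held 43.1% of the variance. It placed WT Treg replicate 4 at -0.38 and Aim2-/- Treg replicates 3 and 4 at -0.42 and -0.51, against 0.10 to 0.41 for the other 5 libraries. Values less the mean of their genotype kept the sign of r in 34 of the 36 pairs. Values less the mean of their genotype and replicate pair (1 and 2, or 3 and 4) kept it in 23 pairs, with Foxp3 and Rora at 0.96, Foxp3 and Tbx21 at -0.76, Foxp3 and Gata3 at -0.32 instead of 0.67, and Foxp3 and Maf at 0.81 instead of -0.53. Taking off a mean over 2 libraries leaves 1 difference per pair, so the values after this step rest on few differences. For Foxp3 the widest difference was between WT Treg replicates 3 and 4, at 500 and 283 CPM, and it weighs most in these values. Leaving out single libraries moved Foxp3 and Tbx21 between -0.89 and -0.77 and Foxp3 and Rora between 0.95 and 0.98. Without WT Treg replicate 3 the number of pairs at or past 0.7 was 28 in place of 18.

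**Figure D4:**
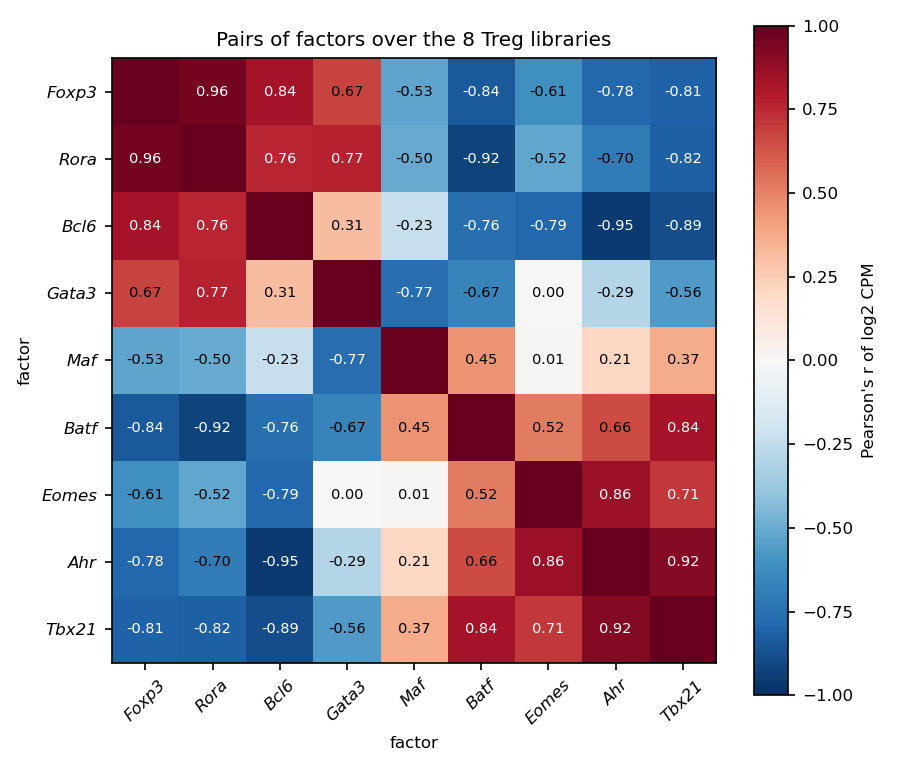
Pearson's r of log2 CPM for each pair of the 9 factors over the 8 Treg libraries, as color from -1 to 1 with the value in each cell; rows and columns are the same factors. Foxp3, Rora and Bcl6 form a positive block (0.76 to 0.96) that runs against Tbx21, Ahr and Batf (-0.70 to -0.95), and Maf and Eomes are near 0 with each other.

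In all, 97 genes in 9 lists tied to the factors as targets, partners or relatives were read in the same fits. In culture of WT cells 62 of 75 tested genes passed, and in Aim2-/- cells 64 of 76 did, near the background shares. None passed for genotype in Tn (67 tested), in Treg (75 tested) or in the interaction (80 tested) with edgeR, and at an unadjusted p under 0.05 there were 2, 3 and 2. Over all genes there were 1389 of 13441, 305 of 13221 and 512 of 14669. Medians of each list are given below beside a median of -0.05 over all genes tested in WT.

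Of the 13 genes tied to Foxp3 in Treg cells, 12 were tested in WT and 11 rose, 0 fell and 1 did not pass, with a median log2 fold change of 3.97. Il2ra, the IL-2 receptor alpha chain, rose from 3.44 to 1465 CPM (8.68 ± 0.17, SE), Nrp1 from 1.32 to 101 CPM (6.18 ± 0.44), Lrrc32, which displays latent TGF-beta, from 0.63 to 28.6 CPM (5.44 ± 0.47), Capg from 29.1 to 734 CPM (4.603 ± 0.09), and the ectonucleotidase gene Entpd1 from 0.87 to 20.4 CPM (4.50 ± 0.65). Ctla4, an inhibitory receptor, was at 47.3 CPM in Tn and 73.6 in Treg and did not pass (adjusted p = 0.355). Of the 14 Th1 and cytotoxic genes, 13 were tested, and 5 rose and 5 fell in WT (median 0.92). The chemokine genes Ccl4 (5.62 ± 0.68) and Ccl3 (4.70 ± 0.50) and the IL-12 receptor gene Il12rb2 (3.68 ± 0.50) rose, and Ccl5 (15.9 to 0.09 CPM) and the perforin gene Prf1 (34.6 to 1.297 CPM, -4.78 ± 0.15) fell. In Aim2-/- cells 7 of 13 rose and 5 fell (median 1.61), and Ifng was among the risen ones there (1.61 ± 0.62) but did not pass in WT (0.92 ± 0.88).

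Of the 10 Th2 genes tied to Gata3 only 4 had enough counts in WT, and 3 rose and 1 fell (median 7.78, or 6.22 with the gene lacking Tn counts set against 3 counts). The chemokine receptor genes Ccr8 (0.57 to 196 CPM, 8.35 ± 0.42) and Ccr4 (0.77 to 117 CPM, 7.21 ± 0.40) rose and the IL-4 receptor gene Il4ra fell from 882 to 224 CPM (-2.03 ± 0.42), all while Gata3 mRNA fell. Il24 had 0 counts in all 8 Tn libraries and was at 4.24 CPM in WT Treg, at least 37.8-fold higher when each Tn library is set to 3 counts. Of the 10 Th17 genes 5 were tested in WT, 4 rose and 1 fell (median 6.55). The cytokine gene Il17f rose from 0.14 to 14.7 CPM (6.55 ± 0.74), Ccr6 went from 0.04 to 46.5 CPM, and Il6ra fell by 1.08 ± 0.17. In Aim2-/- the Th17 genes gave the same counts, 4 up and 1 down.

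Of the 10 Tfh genes 9 were tested, 2 rose and 3 fell in WT (median -0.18). Pdcd1, which encodes the receptor PD-1, rose by 5.52 ± 0.22 and Cd200 by 2.85 ± 0.32, and Btla (-0.91 ± 0.11), Sh2d1a (-0.80 ± 0.21) and Tox (-0.67 ± 0.13) fell. Of 7 partners and targets of Ahr, 6 were tested, 4 rose and 1 fell (median 2.56, or 2.23 with 3 low genes set against 3 counts). The targets Gpr15, Cyp1a1 and Ahrr stayed low, at 1.46, 1.23 and 0.91 CPM in WT Treg, from 0.05, 0.05 and 0.06 CPM in Tn. Tiparp, another Ahr target, fell from 61.4 to 6.14 CPM (-3.37 ± 0.45), and the dimer partner Arnt did not pass (-0.11 ± 0.10).

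All 9 AP-1 and IRF partners of Batf passed in both genotypes, 3 higher and 6 lower (median -3.65 in WT). Jund is uncertain because its reads were divided between duplicate rows. Divided reads were not particular to Jund, since the counts of Il12rb2 and Lef1 were not whole numbers in any of the 16 libraries. Fos (381 to 1.23 CPM, -8.34 ± 0.23), Fosb (-5.35 ± 0.32) and Fosl2 (-4.18 ± 1.07) fell like Batf, and the IRF genes Irf8 (to 1270 CPM in WT Treg, 6.93 ± 0.25) and Irf4 (38.0 to 856 CPM, 4.44 ± 0.54) rose. The groups overlapped for Fosl2, with WT Tn replicate 3 (20.6 CPM) inside the WT Treg range of 14.3 to 27.0 CPM. WT Tn replicates 1 and 2 (518 and 732 CPM) set most of its fall. Of the 14 paralogs of the factors 7 were tested in WT, 6 rose and 0 fell (median 3.67, or 2.99 with 3 low genes set against 3 counts). They included Batf3 (0.01 to 2.48 CPM), Bcl6b (0.03 to 0.89 CPM), Ahrr and Gata1 (2.32 to 6.63 CPM, 1.46 ± 0.24). Of 12 other regulators of T cell fate 0 rose and 9 fell in WT, with a median of -1.47. Satb1 (857 to 72.0 CPM, -3.63 ± 0.16), Id2 (-2.59 ± 0.15), Tcf7, which encodes TCF-1 of naive and memory cells (1603 to 348 CPM, -2.26 ± 0.13), Nfil3 (-1.95 ± 0.64) and Lef1 (-1.90 ± 0.11) fell most. For Nfil3, however, WT Tn replicate 3 (6.53 CPM) lay below all WT Treg libraries (7.27 to 9.98 CPM).

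**Figure D5:**
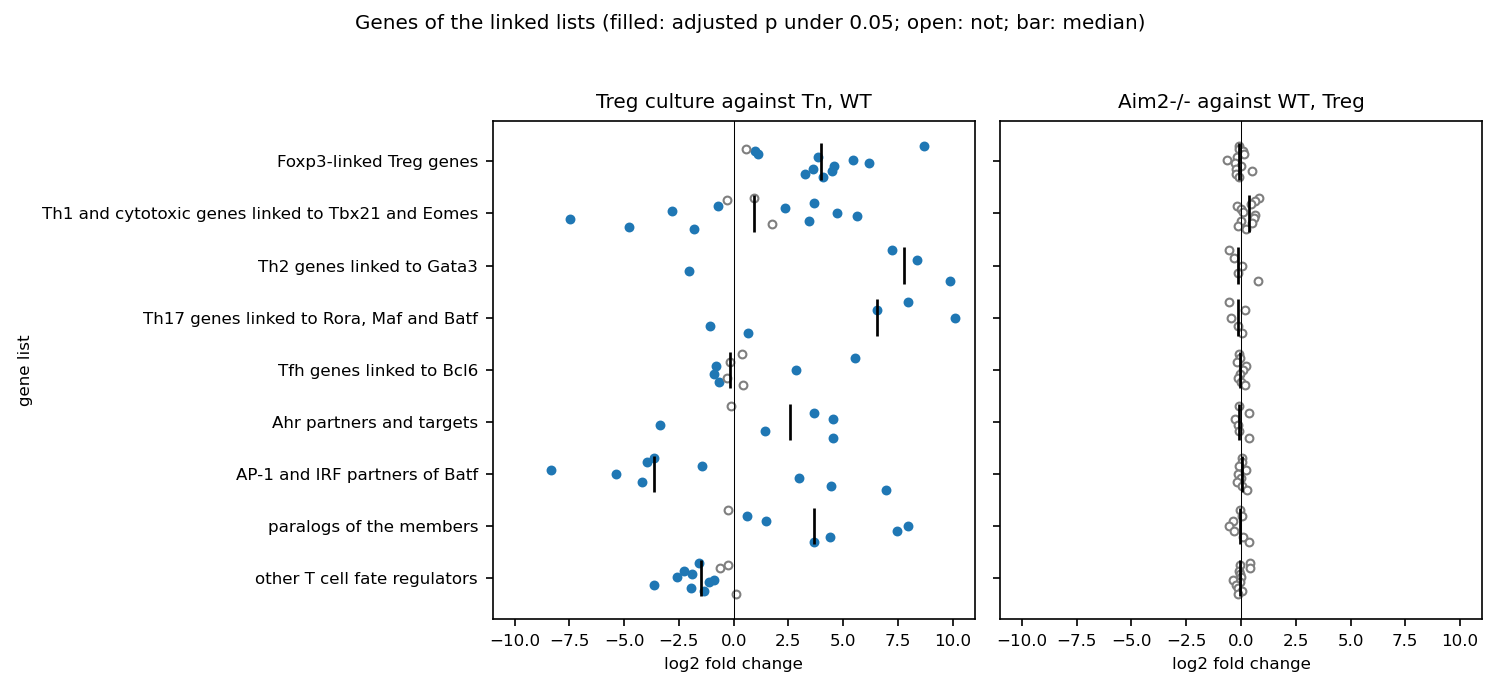
Log2 fold change (horizontal axis) of each tested gene in the 9 lists tied to the factors, for Treg against Tn in WT (left) and for Aim2-/- against WT in Treg (right), on the same scale; filled points passed the adjusted threshold, open points did not, and bars are medians. On the left 62 genes are filled and the medians run from -3.65 for the AP-1 and IRF partners to 7.78 for the Th2 genes, and on the right every point is open.

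The 2 genes whose log2 CPM followed each factor most closely over the 16 libraries, among 14669 genes, were Pdgfb and Ncapd2 for Foxp3 (Pearson's r of 0.998 for each), Ube2l6 and Entpd1 for Tbx21 (0.990 and 0.989), Rasgrp1 and Ifnar2 for Gata3 (0.989 and 0.988), Mgat5 and Ldlrad4 for Rora (0.941 and 0.936), Arhgef11 and Ehhadh for Bcl6 (0.957 and 0.949), Aig1 and Igsf23 for Eomes (0.955 and 0.952), Prep and Plk4 for Ahr (0.996 and 0.995), Pnp and Mgme1 for Maf (0.996 each) and Ik and Sys1 for Batf (0.980 and 0.979). The gap between Tn and Treg sets most of these values, since 8 libraries lie on each side of it. Entpd1, which is also in the Foxp3 list, was at 8.72, 19.8, 7.88 and 45 CPM in WT Treg replicates 1 to 4. In Aim2-/- Treg it was at 9.96, 27.7, 48.9 and 29.4 CPM. Over the 8 Treg libraries its r was 0.97 with Tbx21 and -0.75 with Foxp3.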

How the data were processed

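Expected counts per gene of 16 mRNA libraries were read as deposited. The authors had aligned single-end reads of stranded TruSeq libraries to GRCm38 with STAR and made these expected counts with RSEM and GENCODE annotation, per the study's methods, and the strand setting is not given in the sources used here. Counts were rounded to whole numbers. Genes reaching 10 counts in 4 or more of a comparison's libraries were tested with edgeR 4.0.16 (TMM, robust quasi-likelihood fit, two-sided, Benjamini-Hochberg, threshold 0.05) in R 4.3.3. CPM are TMM-scaled. Limma-voom (limma 3.58.1, the study's test family) and DESeq2 1.42.0 were alternatives, with other filters, scalings and subsets of libraries. Fits were tested on simulated data. Correlations used log2 CPM with a prior count of 2. The factors and gene lists were chosen with earlier results of these data known. All 9 factors are named, and of each list up to 5 genes, those with the largest called change in WT culture. Ctla4, Ifng, Arnt, Junb and Jund were named beyond that rule, after their values were seen. A gene of these lists and a marker sum are not reported here. Where a symbol had several rows, the row with the largest total was used. Nothing in the labels says whether the 4 libraries of a group came from separate mice beyond their numbers, so p-values measure the spread between these libraries. Positions are from GENCODE M21 (GRCm38).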

Additional observations from a re-analysis of the deposited data

Results flagged for a closer look

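In 36 groups of 4 libraries (9 factors in 4 groups), 2 held a library set apart from the other 3 by a gap past Dixon's critical value for 4 values at the 95% level, where chance gives about 1 group in 20. In Aim2-/- Treg, Eomes was at 5.47 CPM in replicate 3, with the other libraries at 2.52 to 2.80 CPM (gap 0.904 of the range). In Aim2-/- Tn, Ahr was at 3.88 CPM in replicate 1, with the other libraries at 1.79 to 1.83 CPM (gap 0.981 of the range).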

How the results depend on the processing

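Culture effects of the 9 factors kept their direction in all 306 alternatives, with 4 calls lost and 6 gained, as given beside Tbx21, Eomes, Bcl6 and Rora, and Rora in Aim2-/- cells lost its call without a filter (adjusted p = 0.0534). Genotype effects kept direction and side of the threshold in 276 of 306 and the interaction in 192 of 216. Genes called for genotype in Tn, 31 in the edgeR fit, were 127 with DESeq2, 47 without a filter, 51 with a term for replicates 1 and 2 against 3 and 4, 15 with replicates 1 and 2, 516 with 3 and 4 (1 factor, Batf), 50 with all 16 libraries in 1 fit, and 17 to 28 with 1 library left out. In Treg, 29 genes became 52 with DESeq2, 15 with replicates 1 and 2, 4 with 3 and 4, and 10 to 17 with 1 left out. For the interaction, 3 genes became 10 with DESeq2 and 2 to 5 with 1 left out. Factor pairs with an absolute r of at least 0.7 numbered 17 to 28 with 1 left out. The cause was not tested.

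Some log2 fold changes that were not called changed sign. With only replicates 1 and 2, genotype in Tn gave Maf -0.37 and Batf -0.25, genotype in Treg gave Gata3 0.0906, Rora 0.24 and Eomes -0.0051, and the interaction gave Gata3 0.0306, Bcl6 0.0841, Maf 0.55 and Batf 0.28. With only replicates 3 and 4, Tn gave Foxp3 -0.17, Bcl6 0.0208 and Ahr 0.50, Treg gave Maf -0.0685, and the interaction gave Rora -0.68 and Ahr -0.40. With limma-voom the interaction of Eomes was 0.17. Leaving out 1 library at a time gave, for genotype in Tn, Foxp3 -0.0466 to 0.33, Tbx21 -0.50 to 0.15, Eomes -0.19 to 0.40, Ahr -0.61 to 0.12, Maf -0.0913 to 0.27. Leaving out 1 library at a time gave, for genotype in Treg, Gata3 -0.33 to 0.24, Rora -0.63 to 0.16, Eomes -0.28 to 0.59, Maf -0.0329 to 0.13. Leaving out 1 library at a time gave, for the interaction, Gata3 -0.37 to 0.21, Eomes -0.46 to 0.41, Maf -0.22 to 0.14, Batf -0.38 to 0.14.

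With the replicate number as a block, 29 genes were called for genotype in Tn, 41 in Treg, 10352 and 10859 for culture in WT and Aim2-/-, and 2 for the interaction, and Rora in WT culture was called (0.86, adjusted p = 0.0153). For genotype in Treg the block narrowed some errors without a call. Foxp3 was at -0.17 ± 0.12 (SE) with the block and ± 0.28 without it, and Gata3 at -0.05 ± 0.14 and ± 0.36. Same-numbered libraries deviated together with r of 0.03 to 0.35 between genotypes in Tn and -0.04 to 0.15 between Tn and Treg. Between genotypes in Treg r was 0.49, 0.30, -0.02 and 0.42 for replicates 1 to 4. The numbers were not taken as pairs, since no label states a pairing. The genotype intervals in Treg given above therefore leave out whatever same-numbered libraries share.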
